A study of Rattus norvegicus with 18 samples.

Results

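Prostaglandin synthesis enzymes and receptors were followed through 8 genes, Ptgs1, Ptgs2, Ptgds, Ptges, Ptger1, Ptger3, Ptger4 and Hpgd, out of 14217 genes named on an Affymetrix rat expression array. Every probe set whose platform annotation gave 1 of these symbols was taken, whatever its signal, which gave 13 probe sets of 31099. The arrays were hybridised with RNA from the right hippocampal formation and the right neocortex of male Sprague-Dawley rats in 3 sleep states. Recovery rats were kept from paradoxical (rapid eye movement) sleep for 72 h and then slept for 6 h, as the sample labels give it, although the protocol text can be read as 6 h of sleep after 78 h. Deprived rats were kept from it for 78 h, and control rats stayed in the home cage. All rats, controls included, carried electrodes for recording brain and muscle activity, were housed singly and were killed at the same clock time, and their age was not given in the sources used here. Deprivation used the flowerpot method: the rat rests on a small platform surrounded by water, and the loss of muscle tone of paradoxical sleep brings it into contact with the water. No platform group with intact sleep was among the groups, so the platform itself and the loss of sleep cannot be told apart. Each group held 2 pools of RNA from 6 rats each, called set 1 and set 2, and both structures of a pool came from the same rats. Set 1 was hybridised on 2 arrays per group, which were averaged, so 18 arrays gave 12 pools.

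Prostaglandins are lipid messengers made on demand from arachidonic acid, which phospholipases and lipases release from membranes. The cyclooxygenases, encoded by Ptgs1 (constitutive in most tissues) and Ptgs2 (inducible, and in the forebrain an activity-regulated gene of excitatory neurons), turn arachidonic acid into prostaglandin H2. Terminal synthases convert this into the final product: Ptgds encodes the lipocalin-type synthase of prostaglandin D2, a sleep-promoting signal made mainly in the meninges, choroid plexus and oligodendrocytes, and Ptges an inducible synthase of prostaglandin E2. Ptger1, Ptger3 and Ptger4 encode receptors for prostaglandin E2, and Hpgd encodes the dehydrogenase that inactivates prostaglandins.

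The RefSeq promoters of Ptgs2 and Ptgds, the members called between the structures among those bright enough to be tested, are shown beside that of Ptgs1, the constitutive counterpart of Ptgs2. Each window runs from 250 bases before to 50 bases after the annotated start on the gene's own strand, in the GRCr8 build, and RefSeq held a window for all 8 members. Capitals mark matches, on either strand, to 4 motifs. These were the E-box CACGTG, the core of a cAMP response element TGACG, the TATA box TATAAA and the C/EBP core TTNNGNAA. No match in the member windows overlapped another. Ptgs2 lies at chr13:64713813-64714112 on the plus strand, Ptgs1 at chr3:39981169-39981468 on the plus strand and Ptgds at chr3:28682929-28683228 on the minus strand.
Ptgs2: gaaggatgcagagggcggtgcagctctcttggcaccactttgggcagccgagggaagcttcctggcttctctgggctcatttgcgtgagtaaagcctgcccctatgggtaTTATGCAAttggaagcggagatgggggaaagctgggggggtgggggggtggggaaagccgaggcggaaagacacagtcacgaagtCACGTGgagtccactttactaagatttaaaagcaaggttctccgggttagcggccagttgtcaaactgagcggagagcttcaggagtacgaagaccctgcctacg
Ptgs1: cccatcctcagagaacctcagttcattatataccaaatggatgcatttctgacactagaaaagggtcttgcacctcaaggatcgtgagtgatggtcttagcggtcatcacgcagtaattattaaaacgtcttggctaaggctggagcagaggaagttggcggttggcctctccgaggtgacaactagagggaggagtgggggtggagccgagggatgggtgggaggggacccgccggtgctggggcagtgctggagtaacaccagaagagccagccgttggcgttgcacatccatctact
Ptgds: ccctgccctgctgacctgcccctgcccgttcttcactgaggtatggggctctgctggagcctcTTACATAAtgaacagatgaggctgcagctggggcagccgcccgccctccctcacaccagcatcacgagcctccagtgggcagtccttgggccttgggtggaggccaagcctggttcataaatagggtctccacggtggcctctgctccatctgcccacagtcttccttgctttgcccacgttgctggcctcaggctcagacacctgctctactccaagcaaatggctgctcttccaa
The Ptgs2 window held the E-box at positions -55 to -50 and a C/EBP core at -140 to -133. The Ptgs1 window held no match to any of the 4 motifs, and the Ptgds window held a C/EBP core at -187 to -180. Of all 33469 promoter windows, 6.42% held the E-box, 21.2% the cAMP response element core, 14.2% the TATA box and 41.3% the C/EBP core. A match describes the letters of the window and says nothing about binding.

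Signals are linear MAS5 intensities in arbitrary units, scaled by the authors to a common level (median signal per array 32.1 to 37.1), and a level is comparable only within 1 probe set. Differences are log2 differences between group means, raised first to a floor of 1, and a call is an adjusted p under 0.05 from limma over the 18625 probe sets left after the dimmest 40% (signal under 19.7) were removed. Of the 13 member probe sets 4 passed this filter, 1 each for Ptgs2, Ptgs1, Ptgds and Ptger3. The other 9 were not tested in that fit; just inside the filter lay Ptgs1 (mean signal 28.6) and just outside it an Hpgd probe set (18.04). Without regard to the set, no probe set of any gene was called between sleep states in either structure, nor in the tests of whether the structures differed in a response, while 3700 (19.9%) were called between the structures. With the set as a block, limma called 2 probe sets between deprived and control neocortex (Arc and Gpd1), 1 between recovery and deprived neocortex (Arc) and 2 in the test of whether the structures differed in recovery minus deprived (Arc and Klf10), and no member. Without the block, unadjusted p under 0.05 in limma was reached by 169 to 301 probe sets per comparison of states. With the set as a block the range was 849 to 1363. The hippocampal pools of set 2 lay apart from those of set 1 on the first principal component (0.300 to 10.01 against 37.9 to 46.6). On this component, which held 48.3% of the variance, they lay between set 1 and the neocortical pools (-26.3 to -20.7). Of 9 hippocampal neuron markers tested, 8 were called higher in the hippocampal formation, and of 9 neocortical neuron markers 5 were called lower and 1 higher there (5 and 3 with the set as a block). Of 10 striatal neuron markers 9 were called lower in the hippocampal formation, with summed signals of 808 to 1050 there and 1936 to 2509 in the neocortex, and their part in the structure differences below was not tested. The 3' to 5' signal ratio of beta-actin, a check of RNA quality, was 2.27 to 2.62 on hippocampal arrays and 2.35 to 3.4 on neocortical arrays. Its part in the structure differences was not tested either. In bulk tissue, fewer cells of a type and less RNA per cell cannot be told apart, and p-values measure the spread between pools of 6 rats.

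Ptgs2, the inducible cyclooxygenase, had its highest signal in the hippocampal formation of recovery rats. The recovery pools of the hippocampal formation read 364.7 (set 1) and 364.8 (set 2), the deprived pools 186.4 and 249.3, and the control pools 202.6 and 243.6. Both recovery pools lay above all 4 other hippocampal pools, while deprived and control pools overlapped. The 2 arrays of the set 1 recovery pool read 370.4 and 359.0, closer to each other than to any array of another hippocampal group. Recovery exceeded control by 0.72 on the log2 scale, a 1.64-fold difference (SE 0.16, 95% interval 0.36 to 1.07), with 0.85 within set 1 and 0.58 within set 2. Recovery exceeded deprivation by 0.76, or 1.69-fold (SE 0.16, interval 0.40 to 1.11), with 0.97 in set 1 and 0.55 in set 2. Deprived and control rats differed by -0.04 (interval -0.40 to 0.31).

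Neither hippocampal recovery difference of Ptgs2 was called by limma over all probe sets tested (adjusted p = 1 for both, unadjusted p = 0.00121 against control and 0.000804 against deprived). Ptgs2 ranked 3 by p among the 18625 probe sets against control and 2 against deprived rats, and 67 and 32 probe sets had larger positive differences. With the set as a block, limma gave adjusted p = 0.146 against control and 0.127 against deprived rats. Of the 4 members tested, Ptgs2 alone did not overlap between recovery and control pools, in a comparison in which 19.9% of all probe sets did not overlap. It was also the only member of the 4 with an unadjusted p under 0.05 in the positive direction, which 0.773% of all probe sets reached.

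In the neocortex the Ptgs2 signal was lower and its spread over states smaller. The recovery pools read 218.6 and 179.2, the deprived pools 171.6 and 184.0, and the control pools 150.4 and 149.5. All recovery and deprived pools lay above both control pools, and recovery overlapped with deprived. Recovery exceeded control by 0.40, or 1.32-fold (SE 0.16, interval 0.05 to 0.76), with 0.54 in set 1 and 0.26 in set 2 (limma, adjusted p = 1, unadjusted p = 0.0309, and adjusted p = 0.735 with the set as a block). Deprivation exceeded control by 0.24 (interval -0.11 to 0.60), and recovery differed from deprivation by 0.16 (interval -0.20 to 0.51), with 0.35 in set 1 and -0.04 in set 2. None of these differences was called.

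Whether the Ptgs2 response differed between the structures was tested by subtracting the neocortical from the hippocampal log2 signal in each pool of rats. The recovery minus deprived difference was larger in the hippocampal formation by 0.60 (SE 0.19, interval 0.16 to 1.04), by 0.62 in set 1 and 0.59 in set 2. It was not called by limma (adjusted p = 1, unadjusted p = 0.0145, and adjusted p = 0.383 with the set as a block). For recovery minus control the structures differed by 0.31 (interval -0.13 to 0.76), and for deprived minus control by -0.29 (interval -0.73 to 0.15), also without a call. The order of the 6 group means ran from recovery, control and deprived in the hippocampal formation down to recovery, deprived and control in the neocortex. Between neighbours in this order, pools were separated at the 2 ends only, between the top group and the next and between neocortical deprived and control rats.

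Over all states, Ptgs2 was called higher in the hippocampal formation than in the neocortex. Signals ran from 186.4 through a median of 246.4 to 364.8 in the 6 hippocampal pools and from 149.5 through 175.3 to 218.6 in the 6 neocortical pools. The ranges overlapped, but within each pool of rats the hippocampal signal was the higher one. The differences in the recovery rats were 0.74 and 1.03 on the log2 scale, in the deprived rats 0.12 and 0.44, and in the control rats 0.43 and 0.70. The mean difference was 0.58, or 1.49-fold (SE 0.08, interval 0.40 to 0.76; limma, adjusted p = 0.00278, higher in 6 of 6 pools of rats). In this comparison 9.40% of all probe sets were called higher, and 14.3% were higher in all 6 pools of rats.

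**Figure D1:**
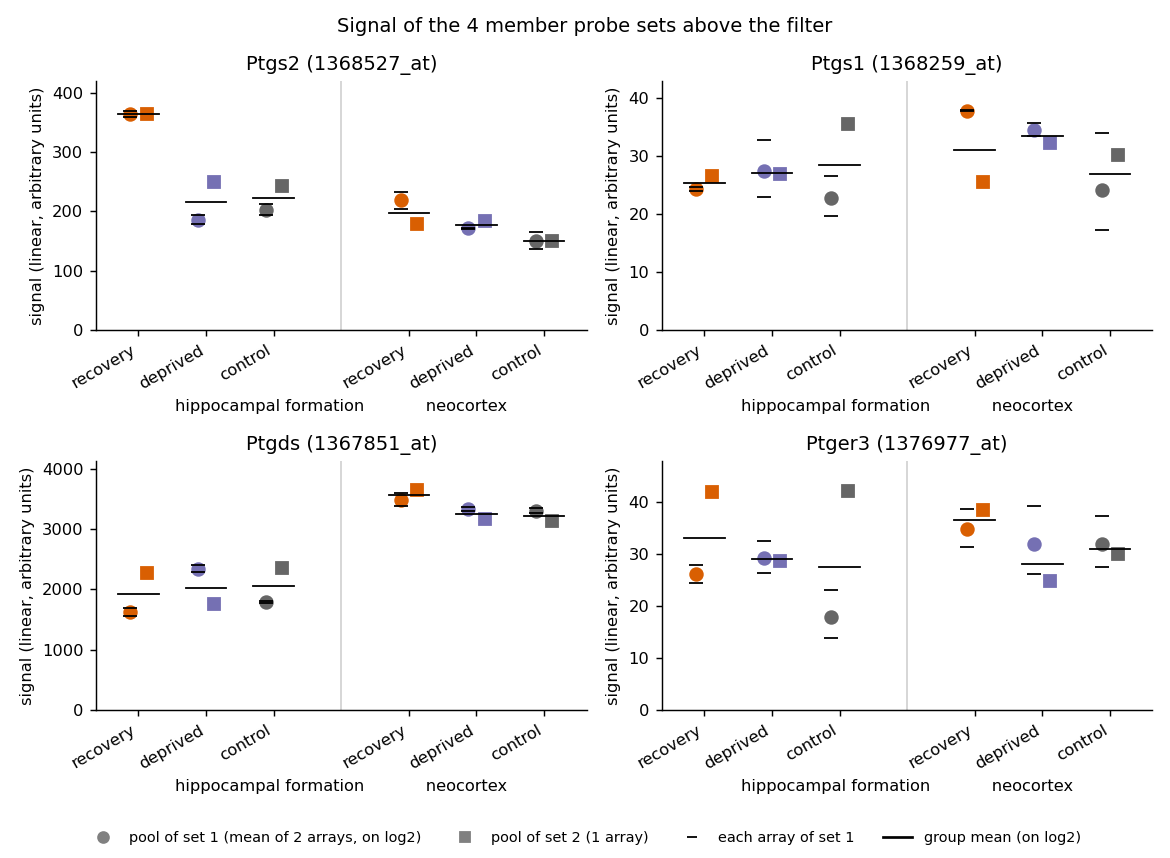
Linear signal (vertical axis, arbitrary units, starting at 0) of the 4 member probe sets above the filter, for recovery, deprived and control rats in the hippocampal formation and in the neocortex; circles are set 1 pools, squares set 2 pools, short dashes the 2 arrays of set 1 and long bars the group means. The hippocampal recovery pools of Ptgs2, at 364.7 and 364.8, lie above all its other pools, and all 6 neocortical Ptgds pools lie above the 6 hippocampal ones.

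Ptgs1, the constitutive cyclooxygenase, was not called in any comparison. Its brighter probe set read 24.3 and 26.5 in hippocampal recovery pools, 27.4 and 26.9 in deprived pools, and 22.8 and 35.6 in control pools. In the neocortex it read 37.8 and 25.6 in recovery pools, 34.5 and 32.3 in deprived pools, and 24.1 and 30.1 in control pools. The 2 deprived neocortical pools lay above both controls, by 0.31 on average (SE 0.27, interval -0.28 to 0.90), with 0.52 in set 1 and 0.10 in set 2. Ptgs1 differed between the structures by -0.17 (SE 0.14, interval -0.49 to 0.15), higher in the hippocampal formation in 2 of 6 pools of rats. The second Ptgs1 probe set stayed below the filter, at 1.30 to 11.4 in the 12 pools. It read 1.30 and 3.60 in hippocampal recovery pools, 9.86 and 11.4 in deprived pools and 5.15 and 7.70 in control pools, an order in which recovery lay lowest, whereas the brighter probe set overlapped between recovery and control pools.

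Across the states the members that passed the filter were few and none was called. In the hippocampal formation 0 of 4 did not overlap between deprived and control pools (19.3% of all probe sets), 1 between recovery and control pools (19.9%) and 2 between recovery and deprived pools (23.2%). In the neocortex the counts were 2 of 4 for deprived against control (24.5%), 3 for recovery against control (24.0%) and 2 for recovery against deprived (23.4%). Over the 4, the median difference between deprived and control was -0.03 in the hippocampal formation and 0.13 in the neocortex, and between recovery and control 0.09 and 0.22, where the medians of all probe sets tested lay between 0.00 and 0.01.

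**Figure D2:**
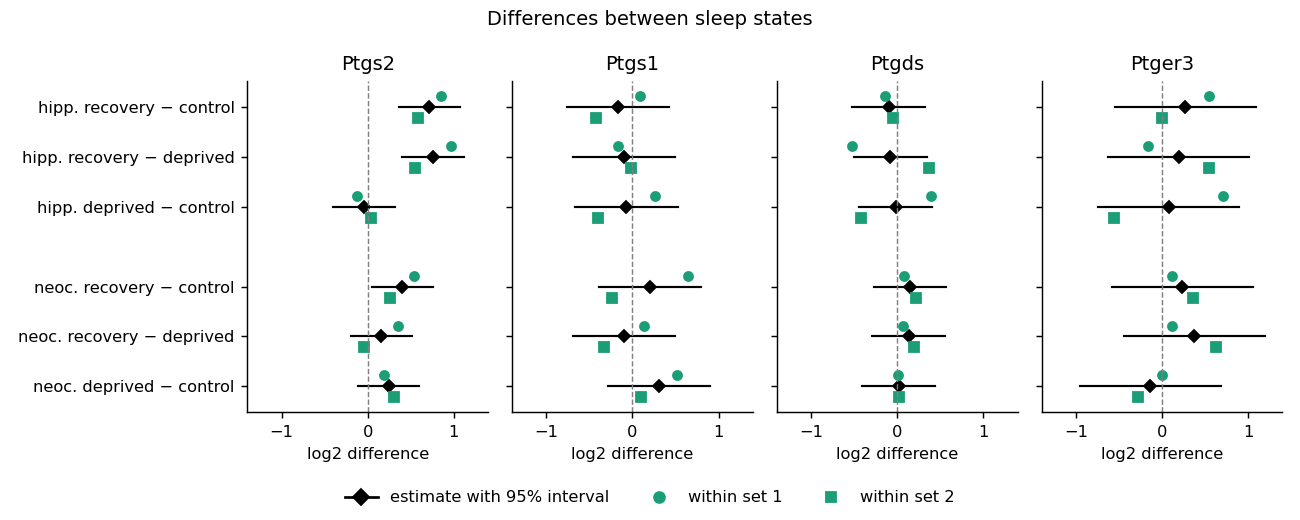
Log2 differences (horizontal axis) between sleep states for the 4 member probe sets above the filter, in the hippocampal formation (hipp.) and the neocortex (neoc.); diamonds with bars are limma estimates with 95% intervals, circles set 1 alone and squares set 2 alone. For Ptgs2 both hippocampal recovery differences, 0.72 and 0.76, have intervals above 0 with both sets on the same side, while the Ptgds sets lie on opposite sides of 0 in 2 of the 3 hippocampal comparisons.

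Ptgds, the brain synthase of prostaglandin D2, was among the brightest probe sets, with 99.7% of all non-control probe sets below its mean, and it was called lower in the hippocampal formation than in the neocortex. Hippocampal pools read 1626 and 2269 in recovery rats, 2344 and 1760 in deprived rats, and 1791 and 2357 in control rats. Neocortical pools read 3486 and 3644 in recovery rats, 3332 and 3171 in deprived rats, and 3305 and 3132 in control rats. The highest hippocampal pool lay below the lowest neocortical pool. The difference was -0.74, or 1.67-fold lower in the hippocampal formation (SE 0.09, interval -0.94 to -0.53; limma, adjusted p = 0.00156), lower in 6 of 6 pools of rats and between -1.10 and -0.41 in each. In this comparison 10.5% of all probe sets were called lower and 14.8% were lower in all 6 pools.

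Between sleep states the Ptgds signal was not called to differ, and in the hippocampal formation the sets went opposite ways. Deprived minus control was 0.39 in set 1 and -0.42 in set 2, which average to -0.02 (interval -0.44 to 0.41). Recovery minus deprived was -0.53 in set 1 and 0.37 in set 2, averaging -0.08 (interval -0.50 to 0.34). Recovery minus control was -0.14 in set 1 and -0.06 in set 2, averaging -0.10 (interval -0.52 to 0.33). In the neocortex both sets had the same sign, with recovery above control by 0.15 (interval -0.28 to 0.57) and above deprived by 0.13 (interval -0.29 to 0.56), and the recovery pools there lay above the other 4. Deprived and control neocortex differed by 0.01 (interval -0.41 to 0.44).

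Markers of the cell types known to carry Ptgds were summed in each pool, over all markers of a list on the array. These sums include markers below the filter, and bright probe sets weigh most in them. Meningeal and fibroblast markers (15 of 17 on the array passed the filter) summed to 1036 to 1736 in hippocampal pools and 1790 to 2422 in neocortical pools, and 13 of the 15 were called lower in the hippocampal formation and 2 higher. Hippocampal sums were 1041 and 1181 in recovery pools, 1736 and 1036 in deprived pools and 1364 and 1352 in control pools. Within each set the states of the hippocampal formation had the same order as for Ptgds. From highest to lowest this was deprived, control and recovery in set 1 and control, recovery and deprived in set 2. Across the sets the order of the pools was not that of Ptgds. The highest hippocampal sum was in the deprived pool of set 1 (Ptgds 2344). The highest hippocampal Ptgds signal was in the control pool of set 2 (2357, with a sum of 1352). In the neocortex the orders of the states differed in both sets. Sums there were 2065 and 1795 in recovery pools, 2330 and 1790 in deprived pools and 2422 and 1910 in control pools. In each set the neocortical control pool had the highest sum and the lowest Ptgds signal. Choroid plexus markers (5 of 12 passed) summed to 464.2 to 5148 in hippocampal pools, with the highest value also in the deprived pool of set 1, and to 236.3 to 2421 in neocortical pools, and 0 of the 5 were called between the structures. Oligodendrocyte and myelin markers (13 of 13 passed) summed to 12810 to 17800 in hippocampal pools and 12040 to 14040 in neocortical pools, and 2 were called higher in the hippocampal formation and 0 lower, or 8 and 0 with the set as a block. No marker of these 3 lists lay at the floor in every pool. The part of these cells in the Ptgds differences was not tested.

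**Figure D3:**
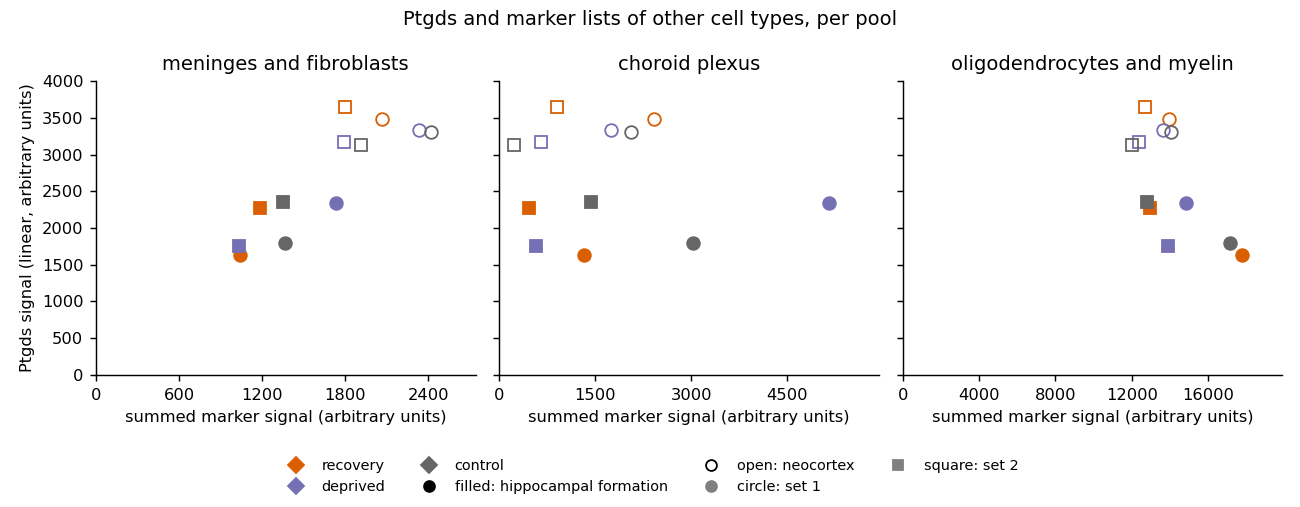
Ptgds signal (vertical axis, arbitrary units) against the summed signal of markers of meninges and fibroblasts, choroid plexus, and oligodendrocytes and myelin (horizontal axes, arbitrary units), 1 point per pool; filled points are hippocampal formation, open points neocortex, circles set 1 and squares set 2. The neocortical pools have both the higher Ptgds signal and the higher meningeal sum (1790 to 2422 against 1036 to 1736), while the choroid plexus sums of the structures overlap.

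Ptges, the inducible prostaglandin E2 synthase, lay below the filter with both probe sets and was lower in the hippocampal formation in 5 of 6 pools of rats for each. The probe set 1368014_at read 3.76 and 2.50 in hippocampal recovery pools, 7.59 and 8 in deprived pools, and 16.8 and 6.70 in control pools. In the neocortex it read 19.7 and 13.0 in recovery pools, 14.7 and 11.8 in deprived pools, and 16.7 and 7.30 in control pools. In the fit without the filter it was called 2.10-fold lower in the hippocampal formation (log2 difference -1.07, limma, adjusted p = 0.0268, where 5.49% of 31042 probe sets were called lower). By pool of rats the difference was -2.39 and -2.38 in recovery rats and -0.95 and -0.56 in deprived rats, but 0.00 and -0.12 in control rats. The hippocampal recovery pools of this probe set lay below all other pools, but the second probe set, 1368015_at, with 14.3 and 6.70 in those pools, overlapped with deprived (11.0 and 11.2) and control pools (3.99 and 13.8). It differed between the structures by -0.75 (adjusted p = 0.161 without the filter). Signals this dim lie in the lowest 40% of the array, where small absolute shifts give large folds.

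Of the prostaglandin E2 receptors, only Ptger3, which signals mainly through inhibitory G proteins, passed the filter, with the probe set 1376977_at. Hippocampal pools read 26.2 and 42.0 in recovery rats, 29.3 and 28.7 in deprived rats, and 17.96 and 42.1 in control rats, and neocortical pools 34.8 and 38.4 in recovery rats, 32.05 and 24.8 in deprived rats, and 32.03 and 30 in control rats. Recovery lay above both other states in the neocortex, by 0.37 over deprived (interval -0.45 to 1.19) and by 0.24 over control rats (interval -0.58 to 1.058), without a call. The structures differed by -0.09 (SE 0.19, interval -0.54 to 0.36), and 3 of 6 pools of rats had each sign. The second Ptger3 probe set read 12.5 to 20.2 in hippocampal pools and 6.05 to 26.6 in neocortical pools. Ptger1, a calcium-mobilising receptor, read 1 to 10.8 in hippocampal pools and 4.80 to 14.6 in neocortical pools with its brighter probe set, and at most 2.70 with the other. Ptger4, which raises cAMP, read 1 to 3.51 in hippocampal pools and 1 to 5.95 in neocortical pools. At signals this near the floor of 1, no order of the states was resolved for Ptger1 or Ptger4.

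Hpgd, the prostaglandin-inactivating dehydrogenase, was higher in the hippocampal formation in 6 of 6 pools of rats with both of its probe sets, although both lay below the filter. The probe set 1376191_at read 29.96 and 28.1 in hippocampal recovery pools, 21.8 and 20.9 in deprived pools, and 28.6 and 27.0 in control pools. In the neocortex it read 12.9 and 15.5 in recovery pools, 12.9 and 12.4 in deprived pools, and 11.9 and 10.6 in control pools. All hippocampal pools lay above all neocortical pools, and the deprived hippocampal pools lay below the other 4 of that structure. Without the filter it was called 2.05-fold higher in the hippocampal formation (log2 difference 1.04, limma, adjusted p = 0.0110, where 4.64% of probe sets were called higher). The second probe set, 1387631_at, gave 1.55 without a call (adjusted p = 0.101), with 2.58 in set 1 and 0.53 in set 2. Among hippocampal states, deprived minus control was -0.38 for 1376191_at, with -0.39 in set 1 and -0.37 in set 2, and 0.15 for 1387631_at, and neither was called without the filter (adjusted p = 1 for both).

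**Figure D4:**
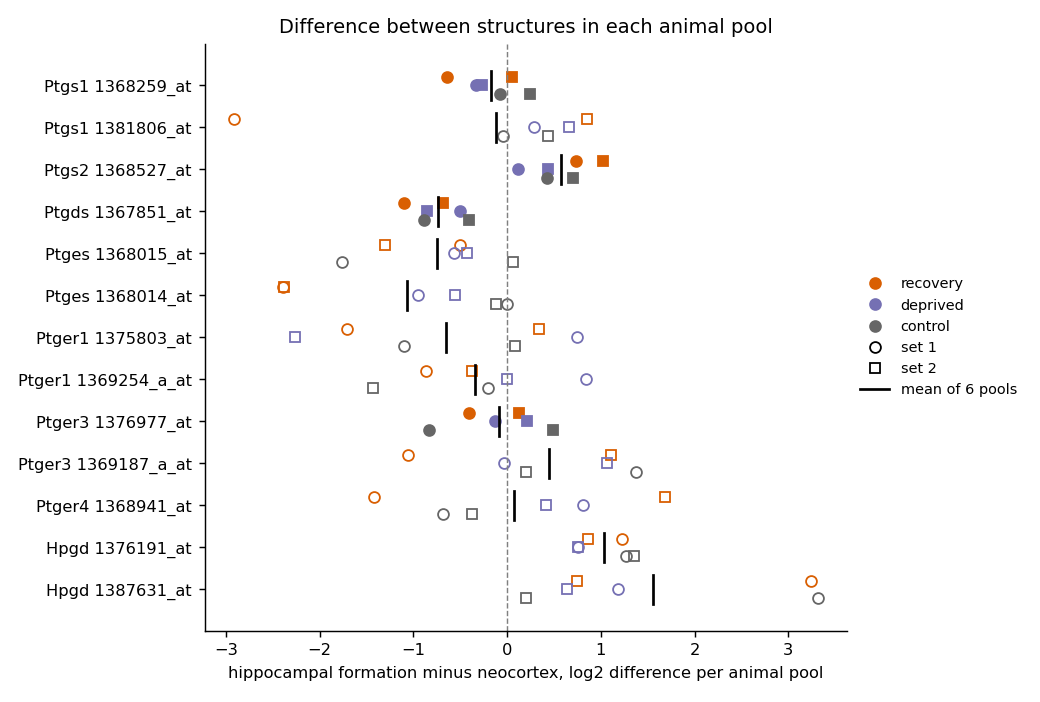
Hippocampal minus neocortical log2 difference (horizontal axis) of all 13 member probe sets in each of the 6 pools of rats, coloured by sleep state; circles are set 1 and squares set 2, filled symbols passed the filter, open symbols did not, and vertical bars are means. All 6 points of Ptgs2 and of both Hpgd probe sets lie above 0, and all 6 of Ptgds lie below 0.

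Over all 13 probe sets, 4 had the same sign in all 6 pools of rats, those of Ptgs2, Ptgds and the 2 of Hpgd, against 20.9% of all 31042 probe sets. Across states, pools did not overlap for 3 of 13 between deprived and control hippocampal formation (22.4% of all), 4 between recovery and control (23.0%) and 5 between recovery and deprived (25.3%). In the neocortex the counts were 7 for deprived against control (26.1%), 6 for recovery against control (25.4%) and 4 for recovery against deprived (25.5%). These counts include probe sets near the floor.

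The rest of the pathway was read from lists of genes of arachidonic acid release, other prostanoid synthases, other prostanoid receptors, prostaglandin transport and breakdown, and the lipoxygenase and leukotriene branch. Of these, 9 of 16, 7 of 10, 1 of 5, 8 of 10 and 6 of 15 genes on the array passed the filter. No gene of the 5 lists was called in any comparison of states or any interaction. Between the structures 0 release genes were called higher and 1 lower, 0 synthases higher and 1 lower, and 1 transport and breakdown gene higher and 4 lower, while 0 of the lipoxygenase branch were called. The median difference was 0.04, 0.06, -0.36 and 0.01 for the release, synthase, transport and lipoxygenase lists, and -0.01 over all probe sets tested. With the set as a block the counts were 1 release gene higher and 2 lower, 3 synthases higher and 1 lower, and 1 transport and breakdown gene higher and 5 lower, with 0 of the lipoxygenase branch. The genes called lower without the block in the release and synthase lists, Pla2g4e and Gstm2, passed the filter only through their neocortical signal, and their differences are given as values. Pla2g4e, a calcium-dependent phospholipase A2, read 3.16 to 24.7 in hippocampal pools, of which 5 of 6 lay below the filter signal, and 42.2 to 53.9 in neocortical pools, a log2 difference of -2.83 in set 1 and -1.20 in set 2. Gstm2, a glutathione transferase of the class with prostaglandin E2 synthase activity, read 6.90 to 18.6 in hippocampal pools, all below the filter signal, and 29.7 to 38.6 in neocortical pools (-1.05 in set 1 and -1.48 in set 2).

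Ptgfrn, a membrane protein that inhibits the binding of prostaglandin F2-alpha to its receptor, was the one tested gene of the receptor list. It read 38.3 and 42.0 in hippocampal recovery pools, 52.3 and 46.2 in deprived pools and 51.9 and 51.9 in control pools, against 115.2 to 143.6 in neocortical pools. It was called 2.75-fold lower in the hippocampal formation (log2 difference -1.46, SE 0.07, limma, adjusted p = 6.07e-05). Its hippocampal recovery pools lay below the other 4, by -0.37 against control and -0.29 against deprived rats, without a call (adjusted p = 1 for both). Slco1a4, an organic anion transporter of the blood-brain barrier and choroid plexus, was 1.25-fold lower there (adjusted p = 0.00527). Slco3a1, a prostaglandin transporter, was 1.24-fold higher in the hippocampal formation (adjusted p = 0.0120), with 155.0 to 182.9 in hippocampal pools and 127.7 to 144.2 in neocortical pools. The other genes called lower in the transport and breakdown list were Slc22a8 (log2 difference -0.58, adjusted p = 0.0307) and Slc22a6 (-0.45, adjusted p = 0.0469), both organic anion transporters, and Ptgr3, a prostaglandin reductase (-0.40, adjusted p = 0.0343, all by limma).

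In each comparison of states the pathway gene with the smallest p had an adjusted p of 1 in limma. It was Ephx2, the soluble epoxide hydrolase, for deprived against control hippocampal formation (-0.86), and Ptgfrn for both recovery comparisons there. In the neocortex it was Slc22a6, an organic anion transporter, for deprived and for recovery against control (-0.44 and -0.36), and Plaa, a phospholipase A2 activating protein, for recovery against deprived (-0.26). For the tests of a difference between the structures in a response it was Lta4h, the leukotriene A4 hydrolase, Slco1a4, and Alox5ap, the 5-lipoxygenase activating protein (0.41, -0.23 and -0.86).

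Ptgs2 was set beside Arc, Fos and Bdnf, well known activity-regulated genes. In the hippocampal formation Bdnf, a neurotrophin, read 256.8 and 199.8 in recovery pools, 161.0 and 118.0 in deprived pools and 167.4 and 121.1 in control pools. Like Ptgs2, it had both recovery pools above the other 4, by 0.67 against control and 0.72 against deprived rats, without a call (limma, adjusted p = 1). Arc, a synaptic immediate early gene, read 145.1 and 148.1 in recovery pools, 99.95 and 101.6 in deprived pools and 112.9 and 97.2 in control pools of the hippocampal formation. Its recovery pools there also lay above the other 4, without a call. In the neocortex Arc was highest in deprived pools, at 150.9 and 200.3, against 78.5 and 109.7 in recovery pools and 80.5 and 102.9 in control pools. There Arc differed by 0.93 between deprived and control rats (adjusted p = 1, and 0.0113 with the set as a block), where Ptgs2 differed by 0.24. Fos, an immediate early transcription factor, differed by 0.95 in that comparison and by 0.84 between recovery and control hippocampal formation, with 1.44 in set 1 and 0.23 in set 2.

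Of 25 activity-regulated genes that passed the filter, 23 lay above 0 for recovery minus control in the hippocampal formation (median 0.31), 14 for deprived minus control there (0.04), 24 for deprived minus control in the neocortex (0.32) and 20 for recovery minus control in the neocortex (0.23). Recovery minus deprived lay above 0 for 20 in the hippocampal formation (0.25) and 7 in the neocortex (-0.12). None of these state differences was called without the set as a block, and all probe sets had medians of -0.01 to 0.01. The recovery and deprivation differences within a structure share their control pools. Of 6 inflammation genes that passed, 0 lay above 0 for recovery minus control in either structure (medians -0.10 and -0.08), and 1 in the hippocampal formation and 2 in the neocortex for deprived minus control (-0.15 and -0.05), and none was called. Of 14 glucocorticoid-responsive genes, 14 lay above 0 for deprived minus control in the hippocampal formation and 14 in the neocortex (medians 0.32 and 0.30). For recovery minus control 12 lay above 0 in the hippocampal formation and 9 in the neocortex (0.25 and 0.07), and for recovery minus deprived 3 and 0 (-0.18 and -0.36). Of the glucocorticoid-responsive genes limma called none without the set as a block and 1 with it, Gpd1, a glycerol phosphate dehydrogenase, for deprived minus control in the neocortex (0.98, adjusted p = 0.00826).

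**Figure D5:**
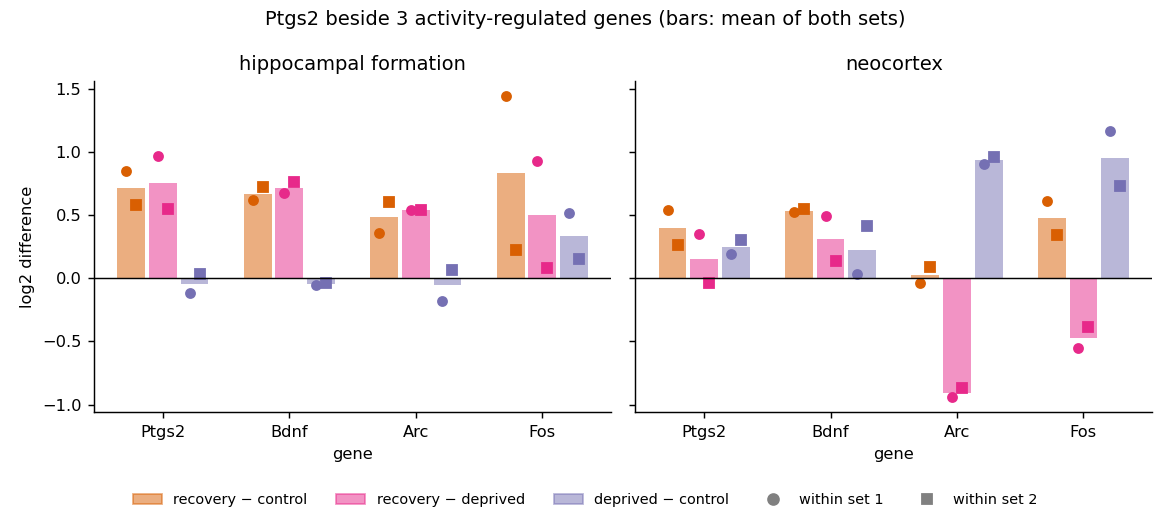
Log2 differences (vertical axis) of Ptgs2, Bdnf, Arc and Fos in the hippocampal formation and the neocortex for recovery minus control, recovery minus deprived and deprived minus control; bars are the mean of both sets, circles set 1 and squares set 2. In the hippocampal formation Ptgs2, Bdnf and Arc have their positive bars in the recovery comparisons. In the neocortex Arc has its highest bar in deprived minus control (0.93), while Ptgs2 has its highest bar in recovery minus control (0.40).

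Ptgs2os, the noncoding RNA on the opposite strand next to Ptgs2, was added as its neighbour. It read 47.8 and 33.2 in hippocampal recovery pools, 32.01 and 21.6 in deprived pools and 35.9 and 29.0 in control pools. Within each set the recovery pool was the highest, but the recovery and control ranges overlapped, with differences of 0.30 against control and 0.60 against deprived rats. In the neocortex recovery minus control was -0.06, and no comparison of Ptgs2os was called (adjusted p for the structures = 0.155).

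The profile of each member was compared with 14112 other named probe sets, as deviations from the mean of the 3 states of the same structure and set, over 12 pools that share rats, arrays and scaling. Closest to Ptgs2 were Fam13c (Pearson r = 0.964), Nr4a3, an activity-regulated nuclear receptor (0.953), and Wnt2b, a secreted signalling protein (0.949). Their hippocampal recovery minus control differences were 0.14, 0.36 and 0.42, against 0.72 for Ptgs2. Closest to Ptgds were Ahcyl1 and Agap1 (0.942 each) and Anxa2, an annexin (0.928). Closest to Ptgs1 were Cnpy4 (0.935), Lrrn4 (0.932) and Cdca4 (0.912), and closest to Ptger3 were Plekho1 (0.950), Cdh22 (0.930) and Fam149a (0.912). These are the highest of many correlations and describe these pools.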

How the data were processed

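Total RNA of the right hippocampal formation and right neocortex was pooled from sets of 6 rats and hybridised as biotin-labelled cRNA to Affymetrix arrays. Per the submitters' processing notes the authors used MAS5, and the deposited file holds 1 linear intensity for each probe set and array; the scaling target and detection calls are not given in the sources used here. After trimming 2% at each end every array had a mean near 100.03, so the arrays had been scaled.

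Signals were raised to a floor of 1 and log2-transformed with no further normalization. The 57 control probe sets were left out, technical arrays were averaged on the log2 scale, and 18625 of 31042 probe sets were kept after removal of the 40% with the smallest mean (log2 under 4.30). Symbols came from the platform annotation (20832 probe sets with 1 symbol, 436 with several, 9831 with none), and all 13 member probe sets matched RefSeq genes.

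limma 3.58.1 in R 4.3.3 (lmFit, eBayes with a trend) was fitted to the 6 group means of 12 pools (6 residual and 3.78 prior degrees of freedom). Structure differences and interactions were fitted to the hippocampal minus neocortical difference of the 6 pools of rats (3 residual and 4.13 prior degrees of freedom). p-values were Benjamini-Hochberg adjusted over all kept probe sets. The fit was tested on simulated pools with independent noise and no set effect. That test does not cover deviations shared by same-numbered pools. The 2 pools per group limit the precision.

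Replicate numbers stand for sets of rats, as the series design text has it. The labels do not state that same-numbered pools of different groups shared a batch, so the main fit leaves the set out. Treating the set as a batch is an assumption, made in the block fits and in the differences within each set. Within a set, 1 pool per group allows no test. Same-numbered pools deviated together (correlation 0.539 to 0.682 within a structure, 0.182 to 0.387 between structures, which share rats). Fits with the set as a block are given where they change a call or a count of calls.

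Alternatives covered the set block, the technical arrays, quantile normalization, the floor, the filter, the trend, the groups in the fit, the hippocampal pools of set 2 and each pool left out. Named were all members, up to 4 called genes per pathway list and comparison or the gene with the smallest p in each comparison of a list where none was called, and Arc, Fos and Bdnf. Named too were the 3 profiles most alike to each member above the filter. Ptgs2os, Pla2g4e, Gpd1, Klf10 and the structure differences of Slc22a8, Slc22a6 and Ptgr3 were named after their values were seen. Members, lists and rules were chosen with earlier results of these data known. Figures used matplotlib 3.10.9, numpy 2.4.6 and pandas 2.3.3 under Python 3.11.15.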

Additional observations from a re-analysis of the deposited data

Results flagged for a closer look

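Of 27 pairs of a dim member probe set (below the filter) and a state comparison, 4 had opposite signs in the structures in both sets, a pattern held by 10.7% of all 37251 such pairs of dim probe sets and comparisons. These 4 were picked for their opposite signs, and none was called as an interaction in the fit without the filter (limma, adjusted p = 1 for each). The probe set 1368014_at of Ptges, the inducible prostaglandin E2 synthase, differed for recovery minus control by -2.15 in set 1 and -1.42 in set 2 of the hippocampal formation and by 0.238 and 0.833 in the neocortex. For recovery minus deprived, the same Ptges probe set differed by -1.01 and -1.68 in the hippocampal formation and by 0.425 and 0.14 in the neocortex. The second Ptges probe set did not share this pattern. Ptger4, a prostaglandin E2 receptor, differed for deprived minus control by 1.43 and 0.678 in the hippocampal formation and by -0.0638 and -0.115 in the neocortex, but its control pools lay at or near the floor of 1, so these sizes are not resolved. The probe set 1376191_at of Hpgd differed for deprived minus control by -0.394 and -0.369 in the hippocampal formation and by 0.118 and 0.226 in the neocortex.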

How the results depend on the processing

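Ptgs2 was called higher and Ptgds lower in the hippocampal formation under all 17 alternatives that gave a value (log2 difference 0.429 to 0.629 for Ptgs2, adjusted p 1.62e-06 to 0.0165; -0.836 to -0.66 for Ptgds, adjusted p 2.16e-06 to 0.00932, by limma). Member probe sets called between the structures were 2 in every alternative except without the filter, where 4 were called because the Ptges probe set 1368014_at and the Hpgd probe set 1376191_at were then tested. No member was called between states or in an interaction under any alternative run. The hippocampal recovery differences of Ptgs2 stayed positive in all 18 alternatives, at 0.582 to 0.848 against control (adjusted p 0.146 to 1) and 0.549 to 0.968 against deprived rats (adjusted p 0.127 to 1). With the replicate block these 2 had adjusted p = 0.146 and 0.127, and the probe sets of all genes called between the structures became 8006 in place of 3700. Without the replicate block, the count rose to 4708 with all arrays kept and the pool as a random block. It rose to 3843 with a floor of 16 and to 3816 with 16 added and no floor. In the other settings that kept all pools the count was 2590 to 3646. The count also rose above 3700 when the set 2 hippocampal pools were left out. When 1 pool of rats was left out it fell, except without the control pool of set 2, where it rose. The replicate block changed no member call.

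Differences that were never called changed sign as follows, and the cause was not tested. With all arrays kept and the pool as a random block (correlation 0.3), the values were Ptgs1 hippocampal deprived minus control 0.000327, the recovery minus deprived interaction -0.0619 and Ptgds hippocampal deprived minus control 0.0689, the deprived minus control interaction 0.0547. With array 1 of set 1 alone, the values were Ptgs2 hippocampal deprived minus control 0.0226, Ptger3 hippocampal deprived minus control -0.186, the deprived minus control interaction -0.0137, the recovery minus control interaction -0.385 and Ptgs1 hippocampal formation minus neocortex 0.00157, the recovery minus deprived interaction -0.141. With array 2 of set 1 alone, the values were Ptgds hippocampal deprived minus control 0.00734, Ptgs1 hippocampal recovery minus deprived 0.02, neocortical recovery minus control -0.0402 and Ptger3 the recovery minus deprived interaction 0.0119. After quantile normalization, the values were Ptger3 hippocampal formation minus neocortex 0.00695, the recovery minus control interaction -0.00862 and Ptgs1 the recovery minus deprived interaction -0.0786. With a floor of 16, the values were Ptger3 the recovery minus control interaction -0.0173. With 16 added and no floor, the values were Ptger3 the recovery minus control interaction -0.01 and Ptgs1 the recovery minus deprived interaction -0.00115. Without the hippocampal pools of set 2, the values were Ptgs1 hippocampal deprived minus control 0.263, hippocampal recovery minus control 0.0896, Ptgds hippocampal deprived minus control 0.388 and Ptger3 hippocampal recovery minus deprived -0.161.

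Leaving out each pool in turn gave these ranges of values that changed sign. Ptgds ran from -0.0239 to 0.0537 for neocortical deprived minus control, -0.224 to 0.19 for hippocampal deprived minus control, -0.338 to 0.143 for hippocampal recovery minus control, -0.321 to 0.16 for hippocampal recovery minus deprived, -0.269 to 0.205 for the deprived minus control interaction. Ptger3 ran from -0.322 to 0.0481 for neocortical deprived minus control, -0.538 to 0.691 for hippocampal deprived minus control, -0.344 to 0.885 for hippocampal recovery minus control, -0.146 to 0.535 for hippocampal recovery minus deprived, -0.449 to 0.089 for the recovery minus deprived interaction, -0.628 to 0.695 for the recovery minus control interaction, -0.311 to 0.13 for hippocampal formation minus neocortex, -0.449 to 0.875 for the deprived minus control interaction. Ptgs1 ran from -0.0747 to 0.489 for neocortical recovery minus control, -0.384 to 0.181 for neocortical recovery minus deprived, -0.391 to 0.25 for hippocampal deprived minus control, -0.489 to 0.152 for hippocampal recovery minus control, -0.341 to 0.348 for the recovery minus deprived interaction. Ptgs2 ran from -0.253 to 0.166 for hippocampal deprived minus control.

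A lone pool left in a group was assumed to vary like the other groups. The lowest 60% filter left Ptgs1 and Ptger3 untested. The fit of 3 groups alone does not apply to structure differences, and interactions without the hippocampal pools of set 2 have no residual degrees of freedom. With 2 pools per group no state difference of a member was called, 0.76 for Ptgs2 included, and 9 of 13 member probe sets were dim.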
